A study of Mus musculus with 8 samples.

Results

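V genes known from the receptors of B-1 cells were followed in RNA of pro-B cells, namely the heavy-chain genes IGHV11-1, IGHV11-2 and IGHV12-3, and the kappa light-chain genes IGKV14-126 and IGKV4-91. They were chosen by name and made up 5 of the 294 V genes in the tables, 3 of 159 VH genes and 2 of 135 light-chain V genes. The cells came from bone marrow of mice aged 8 weeks and were sorted as B220+, Cd43+, IgM- and CD25-. The labels gave 4 control samples and 4 Setd2 knockout samples, all untreated and all of 1 sequencing batch. They name neither the strain, the knockout allele, a Cre driver nor the animal behind a replicate, so p-values reflect how these samples vary, and that variation may be technical. Setd2 encodes a histone methyltransferase, and its transcript was not analysed here, nor were the defining markers of pro-B cells, since the tables used hold immunoglobulin genes.

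Pro-B cells are the stage at which the heavy-chain locus joins V, D and J segments, before the light-chain loci are rearranged. B-1 cells are a self-renewing B-cell lineage that arises largely in fetal and neonatal life, lives mainly in the body cavities and makes natural antibody. Many B-1 cells bind phosphatidylcholine, and their receptors repeatedly pair a VH11 heavy chain with a light chain from IGKV14-126 (formerly Vk9), or a VH12 heavy chain with one from IGKV4-91 (formerly Vk4). The CDR3 is the loop where V, D and J meet, and it opens with the last bases of the V gene.

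The last 75 bases of each V coding exon are shown because they tell apart, or fail to tell apart, the genes whose reads and contigs are counted. Each runs 5′ to 3′ on the gene's own strand, from the GENCODE transcripts of build mm10 (GRCm38), and the capitals mark the germline start of the CDR3 from the conserved cysteine codon.
IGHV11-1: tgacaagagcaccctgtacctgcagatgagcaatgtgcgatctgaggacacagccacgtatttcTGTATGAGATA
IGHV11-2: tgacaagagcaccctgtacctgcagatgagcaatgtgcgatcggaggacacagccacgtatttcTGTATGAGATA
IGHV12-3: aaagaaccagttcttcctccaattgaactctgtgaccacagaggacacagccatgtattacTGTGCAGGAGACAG
IGKV14-126: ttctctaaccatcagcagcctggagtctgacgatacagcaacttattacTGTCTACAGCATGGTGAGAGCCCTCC
IGKV4-91: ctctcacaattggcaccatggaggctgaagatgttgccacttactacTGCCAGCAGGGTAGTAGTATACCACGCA

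The genes lie at chr12:113981879-113982174 (IGHV11-1), chr12:114048241-114048704 (IGHV11-2) and chr12:114366526-114366819 (IGHV12-3), all on the minus strand. IGKV14-126 lies at chr6:67896177-67896642 on the plus strand and IGKV4-91 at chr6:68768555-68769103 on the minus strand. Across 353 bases, IGHV11-1 and IGHV11-2 had the same base at 349 (98.9%), and their CDR3 starts were identical. Of the 75-base windows of the transcripts, 65.6% of those of IGHV11-1 and 75.2% of those of IGHV11-2 occurred in no other V transcript, against 100% for each of the other 3 genes. Reads of the VH11 pair can therefore be split between the copies by the counting, and their single values are uncertain to that extent.

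The tables give reads per gene segment, and each gene is reported as a percent of the V reads of its chain, a share that falls when other V genes take more. Each control had 35505 to 53071 VH reads and each knockout 1637 to 56542, and light-chain V reads numbered 39816 to 57300 and 2085 to 75449. Knockout 3 was the shallowest sample on both chains. Constant regions of switched B cells and plasma cells were read in every sample. Of all reads on heavy constant regions, IGHG held 20.8 to 35.5% among controls and 2.66 to 14.9% among knockouts, and IGHA 17.1 to 33.3% and 4.02 to 34.1%. IGHE reached at most 0.0702% in any sample. IGHD, of mature naive B cells, held 0.651 to 0.977% and 0.467 to 0.759%, and IGHM, which pro-B and B-1 cells share, 41.4 to 48.02% and 55.4 to 92.7%. The kappa constant region IGKC held 46.9 to 50.6% of light-chain locus reads among controls and 43.2 to 50.2% among knockouts. Cells with a rearranged light chain express it, but its reads were not shown to come from such cells alone. The lambda constant regions IGLC, expressed by such cells as well, held 1.11 to 2.05% and 2.31 to 14.6%, each knockout above each control. The part of such cells in the shares below was not tested, and in bulk samples fewer cells of a type and less RNA per cell cannot be told apart.

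The 3 heavy-chain genes were close to the limit of detection in both groups, and none changed past the test. IGHV11-2 was the most read, with 10, 19, 4 and 9 reads in the controls and 5, 1, 0 and 1 in the knockouts, here and below in replicate order. Its share was 0.0256, 0.0358, 0.0113 and 0.0199% of VH reads in the controls and 0.0196, 0.00447, 0 and 0.00177% in the knockouts. Knockouts 2, 3 and 4 lay below every control, while knockout 1 lay within the control range. The mean was 0.0231 ± 0.0103% in controls and 0.00646 ± 0.00894% in knockouts (SD, n = 4 each), a log2 fold change of -1.55 (SE 0.999, adjusted p = 0.329, edgeR quasi-likelihood test with Benjamini-Hochberg adjustment over 130 VH genes). The two-sided exact permutation test of the shares gave p = 0.0571 (0.165 adjusted over the same genes), above the smallest p of 0.0286 that 4 against 4 samples allow. Without knockout 1 the log2 fold change was -2.98 (adjusted p = 0.0987, edgeR), and without knockout 4 it was -1.02. It was -0.49 with TMM scaling and -0.38 with DESeq2 size factors.

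IGHV11-1, its near-identical copy, had 4, 2, 0 and 4 reads in the controls and 2, 1, 0 and 0 in the knockouts. The groups overlapped, with control 3 and knockouts 3 and 4 at 0 reads. Its mean share was 0.00571 ± 0.00472% in controls and 0.00308 ± 0.00381% in knockouts (SD, n = 4 each), and the log2 fold change of -0.69 was smaller than its SE of 1.27 (adjusted p = 0.774, edgeR). The sign turned to 0.28 with TMM scaling, to 0.61 with DESeq2 size factors and to 0.02 without knockout 4, and without knockout 1 the value was -1.73. With the reads of both VH11 copies added up, the log2 fold change was -1.32 (SE 0.98, adjusted p = 0.402, edgeR).

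IGHV12-3 had 8, 1, 2 and 6 reads in the controls and 0, 4, 0 and 8 in the knockouts. Knockouts 2 and 4 lay among the 4 highest samples, and knockouts 1 and 3 had no read. The mean share was 0.0103 ± 0.00827% in controls and 0.00801 ± 0.00937% in knockouts (SD, n = 4 each), with a log2 fold change of 0.00 (adjusted p = 0.997, edgeR). Leaving out single samples moved it from -0.41 (without knockout 2) to 0.55 (without control 1), and it was 1.38 with TMM scaling, so these data gave it no direction. A count of 0 allowed a share of up to 0.0117% in knockout 1 and of up to 0.183% in knockout 3, above the share of each VH member in every sample, so a loss in knockout 3 was not detectable at this depth.

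**Figure D1:**
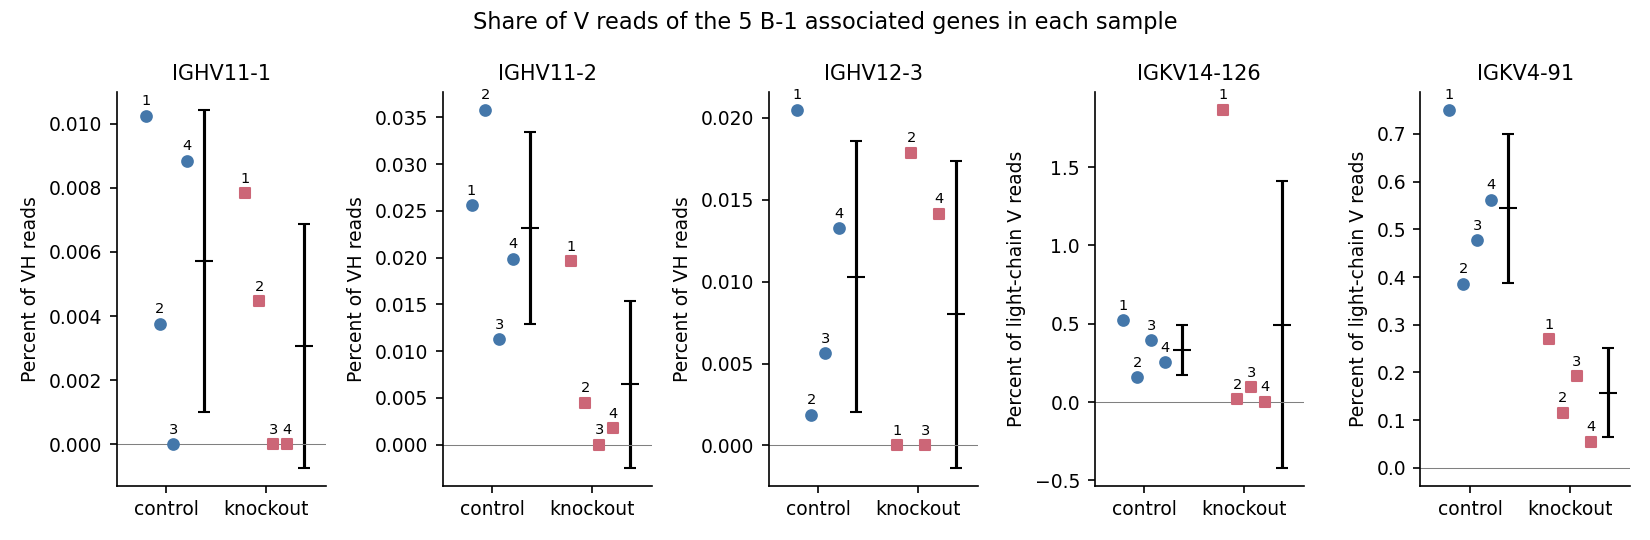
Share of V reads in percent (vertical axis, linear) for each of the 5 genes in the 4 controls (circles) and 4 knockouts (squares), numbered by replicate, with bars for mean ± SD. IGKV4-91 is the gene whose groups do not overlap, and knockout 1 stands at 1.87% for IGKV14-126 while the other knockouts lie below all controls.

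IGKV14-126, the light chain that pairs with VH11, had the largest SD among knockouts of the 5 genes. It had 232, 91, 157 and 144 reads in the controls and 513, 4, 2 and 2 in the knockouts. Its share of light-chain V reads was 0.521, 0.159, 0.394 and 0.254% in the controls and 1.87, 0.0171, 0.0959 and 0.00265% in the knockouts. Knockout 1 was the highest of all 8 samples, and knockouts 2, 3 and 4 were the lowest. Knockout 1 alone held 98.5% of the 521 knockout reads of the gene.

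The mean share of IGKV14-126 was 0.332 ± 0.159% in controls and 0.495 ± 0.914% in knockouts (SD, n = 4 each), and the log2 fold change was 0.60 (SE 1.37, adjusted p = 0.844, edgeR over 113 light-chain V genes). It was 1.61 with TMM scaling and 1.43 with DESeq2 size factors. With all samples kept, the sign turned to -2.50 with the replicate number as a block, and the difference of mean log2 shares was -1.78. Without knockout 1 the direction turned as well, with a mean of 0.0386 ± 0.0502% in the remaining knockouts (SD, n = 3) and a log2 fold change of -4.06 (SE 1.34, unadjusted p = 0.00987, adjusted p = 0.0929, edgeR), still not past the threshold. The exact permutation test of the shares gave p = 1 with all samples and p = 0.0571 without knockout 1, the smallest that 4 against 3 samples allow. The share in knockout 3 rested on 2 reads, with a 95% Wilson interval of 0.0263 to 0.349% that covers counting error only and reaches into the control range. In constant-region reads, knockout 1 had 67.5% IGHM, 9.52% IGHG and 22.2% IGHA, each between the lowest and highest of the other knockouts.

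IGKV4-91, the light chain that pairs with VH12, was lower in every knockout than in any control. It had 334, 221, 190 and 318 reads in the controls and 74, 27, 4 and 41 in the knockouts. The shares were 0.750, 0.386, 0.477 and 0.562% in the controls and 0.269, 0.115, 0.192 and 0.0543% in the knockouts. Its lowest control stood above its highest knockout, which was again knockout 1. The share in knockout 3 rested on 4 reads, with a Wilson interval of 0.0746 to 0.492%. That interval covers counting error only and reaches past the shares of control 2 (0.386%) and control 3 (0.477%). The mean was 0.544 ± 0.155% in controls and 0.158 ± 0.0932% in knockouts (SD, n = 4 each), a 3.45-fold lower share.

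The exact permutation p for IGKV4-91 was 0.0286, the smallest the design allows, and 0.140 after adjustment over 113 genes. The log2 fold change was -1.81 (SE 0.79, unadjusted p = 0.0394, adjusted p = 0.247, edgeR), so it did not pass the threshold. It ran from -2.30 to -1.50 as each sample was left out, and was -0.97 with TMM scaling and -1.01 with DESeq2 size factors. The other light-chain V genes often showed the same separation. In 19.5% of the light-chain V genes tested all knockouts lay below all controls, against 0.885% with all knockouts above. IGKV4-91 is 1 of 22 genes of the first kind, so its separation is not particular to it.

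**Figure D2:**
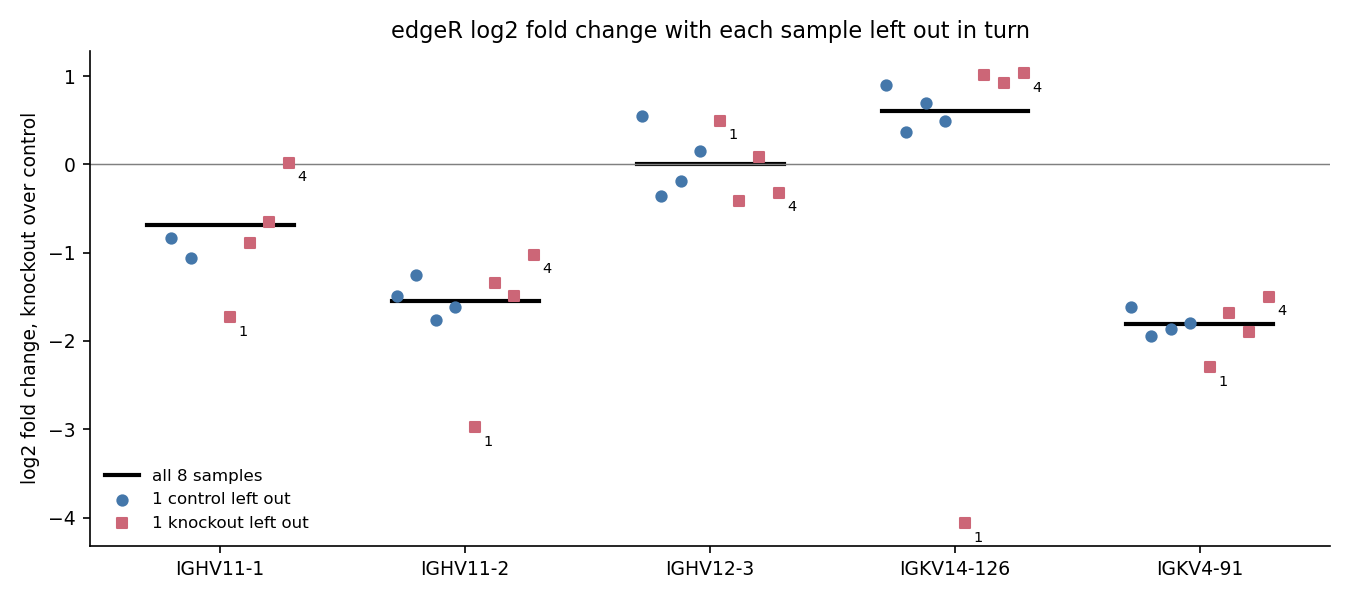
edgeR log2 fold change of each gene, knockout over control (vertical axis), with all 8 samples (black line) and with each control (circle) or knockout (square) left out, knockouts 1 and 4 numbered. IGKV14-126 moves from 0.60 to -4.06 without knockout 1, while IGKV4-91 stays between -2.30 and -1.50. IGHV11-1 has no point where a sample left out took it under 10 reads.

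Among all V genes, the test called 0 of 130 VH genes (0%) and 0 of 113 light-chain V genes (0%) at an adjusted p under 0.05, and so none of the 5 members (edgeR). At an unadjusted p under 0.05, 26.2% of VH genes were lower and 1.54% higher in knockouts, and 15.9% of light-chain V genes were lower and 2.65% higher. IGKV4-91 was the member under that value. DESeq2 called 6 VH genes (3 higher, 3 lower) and 9 light-chain V genes (6 higher, 3 lower), none of them a member. It gave no adjusted p for IGHV11-1, IGHV12-3 and IGKV14-126, so of the members only IGHV11-2 and IGKV4-91 could have been called. The median log2 fold change of all tested genes was -0.82 for VH and -0.64 for light-chain V genes by share, 0.18 and 0.15 with TMM scaling, and 0.20 and 0.21 with DESeq2. Relative to the median by share, IGHV11-2 and IGKV4-91 lay lower, and IGHV11-1, IGHV12-3 and IGKV14-126 higher.

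**Figure D3:**
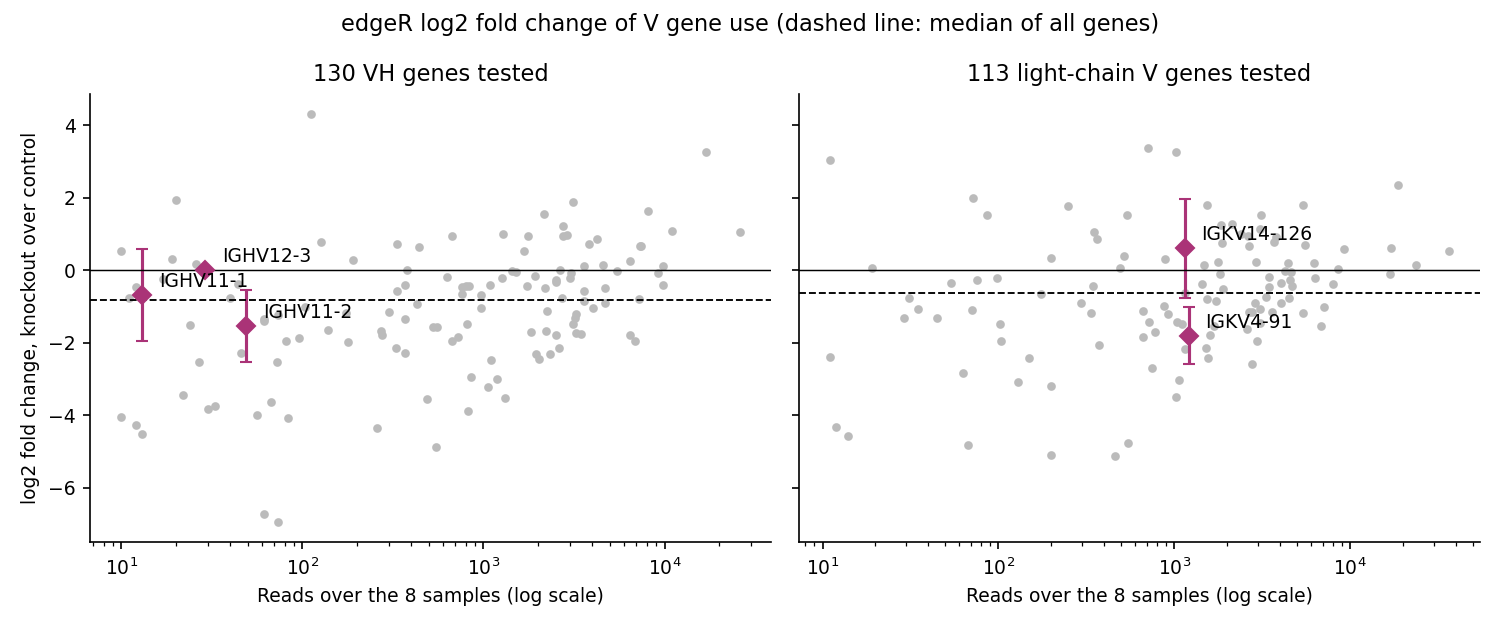
edgeR log2 fold change, knockout over control (vertical axis), against reads over the 8 samples (horizontal log axis) for 130 VH and 113 light-chain V genes, with the members as diamonds with SE (none drawn for IGHV12-3). The dashed lines mark the medians of -0.82 and -0.64, and IGHV11-2 and IGKV4-91 lie below them.

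Levels were compared between genes as percent of V reads per kilobase of exon. The VH members were among the least used: in controls IGHV11-2 ranked 111, IGHV12-3 119 and IGHV11-1 125 of 159 VH genes, and in knockouts 111, 107 and 119. The kappa members were nearer the middle of all light-chain V genes, kappa and lambda together, by this measure. In controls IGKV4-91 ranked 54 and IGKV14-126 66 of 134 genes, at 1.52 and 0.941% per kilobase against a median of 0.907%. In knockouts IGKV14-126 ranked 48 and IGKV4-91 70, at 1.40 and 0.440% per kilobase against a median of 0.500%, and the first of these means rests on knockout 1.

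Relatives of the kappa members did not move as a block. Of the 6 other IGKV14 genes 3 had enough reads to test, all 3 with a negative log2 fold change by share and with both other scalings (median -1.21 by share, against -0.64 for all light-chain V genes), and none was called by edgeR. IGKV14-130 did not overlap between groups (0.0280 ± 0.0156% in controls, 0.00306 ± 0.00527% in knockouts, SD, n = 4 each), and IGKV14-111 was 2.31 ± 0.348% and 1.02 ± 0.975% (SD, n = 4 each). Of the 32 other IGKV4 genes, a large family, 14 had a negative and 18 a positive log2 fold change by share (median 0.18), none called by edgeR, and 25 were positive with TMM and 26 with DESeq2 size factors. IGKV4-91 thus had a negative value under all 3 scalings while the median of its family was positive under each. IGKV4-83 lay below all controls in every knockout and IGKV4-74 above, at 0.571 ± 0.139% in controls and 1.10 ± 0.135% in knockouts (SD, n = 4 each). IGKV4-74 was the single light-chain V gene with all knockouts above all controls. Its adjusted p was 0.419 by edgeR, while DESeq2 called it and 3 more of the family, IGKV4-59, IGKV4-69 and IGKV4-71. For these 3 genes knockout 4 was the highest of all samples, at 19.7, 1.44 and 2.96%. Knockout 2 lay below every control for each, at 0.581, 0.0641 and 0.115%. How far the family median rests on knockout 4 was not tested. The other IGHV12 gene, IGHV12-2, had 1 read in all.

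Other V genes known from B-1 antibodies gave no call either. IGHV7-1, of the anti-phosphorylcholine T15 heavy chain, had a share of 0.129 ± 0.134% in controls and 0.204 ± 0.111% in knockouts (SD, n = 4 each, log2 fold change 0.64, adjusted p = 0.701, edgeR). IGHV8-12, known from an anti-thymocyte autoantibody, had 1.04 ± 0.553% and 0.767 ± 0.598% (SD, n = 4 each, log2 fold change -0.48, adjusted p = 0.766, edgeR), and its sign turned to 0.14 with TMM and 0.23 with DESeq2 size factors. IGKV7-33, the T15 light chain, had 11 reads over all samples. The groups overlapped for each of these 3 genes.

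The V genes beside the VH members shared the low fold changes of their chain. Of 15 neighbours, the 3 V genes on each side of each member, 14 could be tested and all 14 had a negative log2 fold change by share (median -1.26, against -0.82 for all VH genes), but 8 of 14 did with TMM (median -0.19) or DESeq2 size factors (median -0.16). EdgeR called none of them by share with the filter of 10 reads, while DESeq2 called IGHV9-2 and IGHV13-2. EdgeR called both genes too with every gene of at least 1 count, with at least 10 counts in at least 4 samples, with all chain reads as library size and with the replicate block, the last pair of settings adding IGHV3-1 and IGHV3-8, and all chain reads also IGHV14-3. All knockouts lay below all controls for 4 of the 14, IGHV9-1, IGHV9-2, IGHV3-8 and IGHV13-2, where 24.6% of all VH genes did so. The mean share of IGHV9-2 was 0.783% in controls and 0.0830% in knockouts, and that of IGHV13-2 was 0.137% and 0.00535%. Around the kappa members the 9 testable neighbours were mixed, with 5 negative and 4 positive by share (median -0.18) and 2 negative with either other scaling. All knockouts lay below all controls for 2 of the 9, IGKV11-125 beside IGKV14-126 and IGKV1-88 beside IGKV4-91. Among all light-chain V genes tested 19.5% did so. The mean share of IGKV4-90, next to IGKV4-91, was 0.628% in controls and 1.24% in knockouts. That knockout mean rested on knockout 2 at 4.80%, while knockouts 1, 3 and 4, at 0, 0.144 and 0.0159%, lay below every control.

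Likeness was measured by Pearson's r of log2 percent (with 0.01 percentage points added) over the same 8 samples, which share their libraries and depths. Closest to IGKV14-126 were IGKV5-48 (r = 0.94), IGKV6-32 (0.88) and the other kappa member, IGKV4-91 (0.78). Closest to IGKV4-91 were IGKV2-109 (0.89), IGKV4-60 (0.87) and IGKV6-32 (0.85). IGHV11-2 was closest to IGHV1-37 (0.91), IGHV1-30 (0.87) and IGHV1-56 (0.86), and IGHV12-3 to IGHV1-81 (0.70), IGHV1-80 (0.68) and IGHV9-4 (0.67). For IGHV11-1, IGHV1-18 came first (0.78) and its copy IGHV11-2 followed (0.69), then IGHV5-15 (0.66).

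The assembled contigs that name these genes were fewer in knockouts, but so were contigs as a whole, with 141 to 419 heavy-chain and 106 to 325 light-chain contigs against 1244 to 1612 and 647 to 929 in controls. IGHV11-1 and IGHV11-2 were listed together on 110 contigs, 23, 18, 35 and 17 in the controls and 6, 6, 2 and 3 in the knockouts. IGHV12-3 was on 271, with 60, 64, 40 and 56 against 21, 18, 4 and 8. IGKV4-91 was on 258, with 47, 66, 40 and 54 against 11, 12, 7 and 21, and IGKV14-126 on 54, with 8, 9, 15 and 14 against 2, 1, 0 and 5. For each gene the groups did not overlap (exact permutation p = 0.0286, n = 4 each). Per 1000 contigs of the chain the groups overlapped for all 5, with an exact permutation p of 0.629 for both VH11 copies, 0.914 for IGHV12-3, 0.171 for IGKV14-126 and 0.257 for IGKV4-91.

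Most contigs that list a member list many V genes besides. The median contig naming a VH11 gene listed 10 V genes, one naming IGHV12-3 29, one naming IGKV14-126 16 and one naming IGKV4-91 36. Contigs whose CDR3 opened with the first 11 germline bases of the named gene were 3 of 110 for VH11, 0 of 271 for IGHV12-3, 11 of 54 for IGKV14-126 and 24 of 258 for IGKV4-91. For the kappa genes 15 bases were used as well, because those 11 of IGKV14-126 are also found in 3 IGKV11 genes, while its 15 were found in no other gene. The 15-base opening of IGKV14-126 was on 1, 0, 4 and 1 contigs in the controls and 2, 1, 0 and 0 in the knockouts, and that of IGKV4-91 on 2, 2, 6 and 4 and on 3, 0, 0 and 2. The 15-base differences did not pass the test (exact permutation p = 0.714 and 0.171, n = 4 each). The first 11 bases of IGKV4-91 open the CDR3 of no other germline gene compared. Contigs with them numbered 4, 7, 7 and 9 in the controls and 3, 0, 0 and 2 in the knockouts. These groups did not overlap (exact permutation p = 0.0286, n = 4 each), not scaled to the lower contig totals of the knockouts. But 8 of these 32 contigs, all in controls, did not list IGKV4-91. A control 1 and a control 2 contig listed IGKV10-96 alone, the first with 12 spanning reads. Of the contigs that also listed IGKV4-91, knockout 1 had more than control 1, so those groups overlapped. By 15 bases, knockouts 2, 3 and 4 had 2 of the 5 knockout contigs of IGKV4-91.

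**Figure D4:**
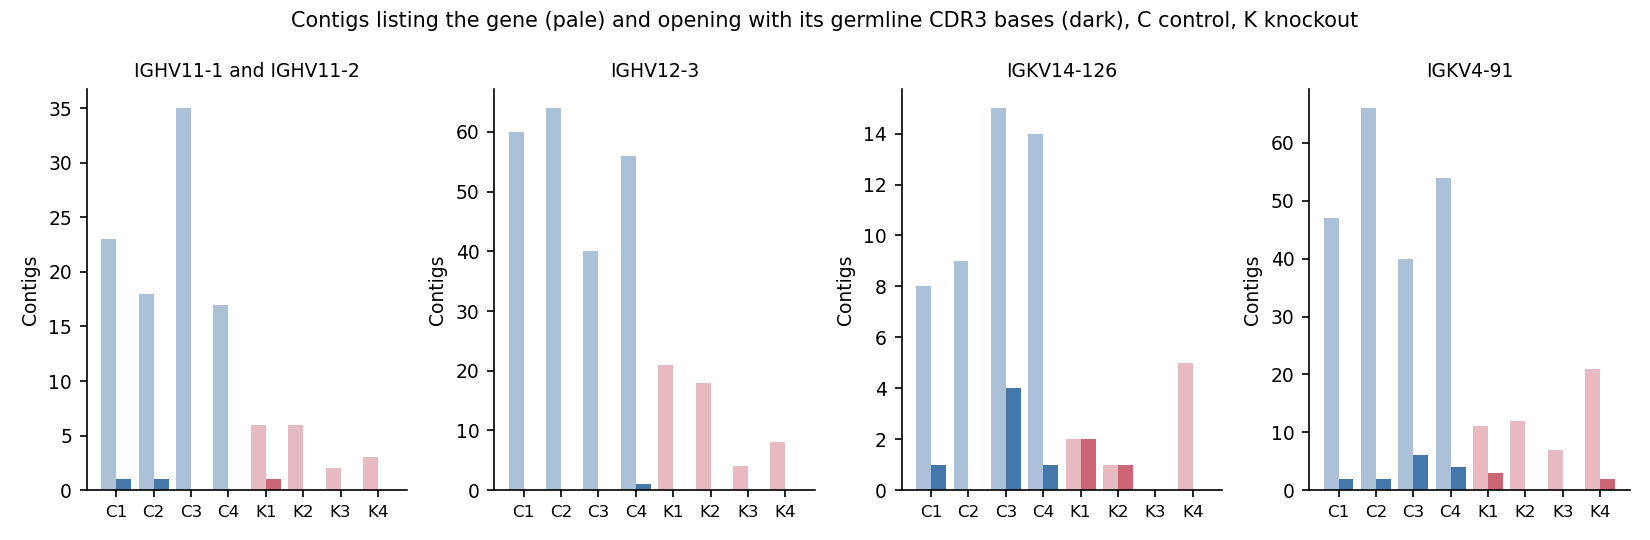
Contigs per sample (vertical axis, from 0) that list the gene (pale bars) and that open with its germline CDR3 bases (dark bars, 11 bases for heavy-chain and 15 for kappa genes), in controls C1 to C4 and knockouts K1 to K4. Dark bars are lower than pale bars except for IGKV14-126 in K1 and K2, where both are equal, and in K3, where both are 0.

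CDR3 sequences with a germline opening are shown because they give the junctions after the V gene as assembled. All 4 heavy-chain sequences are printed, and of the kappa sequences those found in more than 1 sample. The names give the gene whose germline bases open the CDR3, which the contig does not always list. Capitals mark the run identical to the germline V end, and the rest, in lower case, holds J and junction bases, and D bases in heavy chains.
VH11, control 1: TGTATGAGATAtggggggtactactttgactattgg
VH11, control 2: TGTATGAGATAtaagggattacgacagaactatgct
VH11, knockout 1: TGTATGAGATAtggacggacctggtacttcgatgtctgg
VH12 opening, control 4: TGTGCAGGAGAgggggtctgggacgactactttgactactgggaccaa
IGKV14-126, control 3 and knockout 1: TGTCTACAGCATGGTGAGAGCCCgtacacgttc
IGKV14-126, control 1 and knockout 1: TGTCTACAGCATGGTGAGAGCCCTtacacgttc
IGKV4-91, controls 2, 3 and 4 and knockout 1: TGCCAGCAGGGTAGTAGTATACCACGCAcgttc
IGKV4-91, controls 1 and 4 and knockout 1: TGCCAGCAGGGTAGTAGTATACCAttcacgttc
IGKV4-91, control 4 and knockout 4: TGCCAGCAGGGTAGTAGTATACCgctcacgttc

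The VH11 contig of knockout 1 was spanned by 3 reads and joined to IGHJ1, the J gene known from VH11 receptors of B-1 cells, and those of controls 1 and 2 by 1 read each, the first joined to IGHJ2. No J gene was assigned to the VH11 contig of control 2 or to the VH12-like contig of control 4. The latter listed 14 V genes, IGHV12-3 not among them. In control 1 the contig with an IGKV4-91 sequence shown listed IGKV8-16 and IGKV8-23-1 in place of IGKV4-91, and some of the contigs with a shown kappa sequence listed no V gene. Both IGKV14-126 contigs of knockout 1 ended in IGKJ2, with 7 reads and 1 read. The sample with 513 IGKV14-126 reads also held the only VH11 opening among the knockouts, on a contig that listed 11 V genes. That contig is of a different chain and not linked to the kappa reads by cell, and whether they are related was not tested. Of the 14 distinct IGKV14-126 and 26 distinct IGKV4-91 sequences with the 11-base opening, 2 and 3 recurred in more than 1 sample.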

How the data were processed

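Poly-A RNA of sorted pro-B cells from 8 samples was sequenced as 75-base single-end reads, per the labels' protocols. STAR 2.5.1 and build mm10 are named per the submitters' processing notes, and the series design text names TRUST, a repertoire assembler, with its version not given in the sources used here. Reads per gene segment and per contig are raw counts as deposited by the authors. The deposited clonal expression estimate, a score per contig per the file headers, gave spanning reads when multiplied by CDR3 length, with lengths under 48 (heavy) and 39 bases (light) set to those values. Contig read counts reached 552 for single kappa contigs of control 3, so spanning reads are printed.

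V counts of each chain were tested with edgeR 4.0.16 in R 4.3.3 (quasi-likelihood, V total as library size, at least 10 reads, Benjamini-Hochberg, threshold 0.05), with DESeq2 1.42.0 as an alternative. The edgeR test was also run on simulated data with 1 dispersion for all genes, which these data need not share. No result here rests on that run. Shares and contig numbers were compared by two-sided exact permutation over 70 arrangements. Deposited intervals matched RefSeq for 159 VH and 135 light-chain V genes. Python 3.11.15, numpy 2.4.6, pandas 2.3.3, scipy 1.17.1 and matplotlib 3.10.9 were used.

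All 5 members are named whatever their values, with their families, 3 other B-1 antibody genes, 3 neighbours a side and the 3 most alike V genes. Members and lists were chosen with earlier results of these data known. Openings by 11 and 15 germline bases and the summed VH11 counts were added after seeing the data. Alternatives were other scalings, filters, denominators, the replicate block and each sample left out.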

Additional observations from a re-analysis of the deposited data

Results flagged for a closer look

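IGKV14-126 in knockout 1 stood apart from the other knockouts, at 1.87% of light-chain V reads (95% Wilson interval 1.71 to 2.03%, counting error only). Its gap to the next knockout was 0.950 of the range of the group, past Dixon's critical value for 4 samples. Of 10 groups looked at, all of member genes, this was the 1 past that value, and chance gives about 1 in 20. The sum of the other 3 knockouts was 8 IGKV14-126 reads. Other V genes were not put to this rule, so the peak is not shown to be particular to IGKV14-126. IGKV5-48, the gene most like it, had 1004, 566, 318 and 854 reads in the controls. In the knockouts it had 1428, 99, 10 and 146.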

How the results depend on the processing

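The VH genes called by edgeR numbered 0 by share and 26 with all reads of the chain as library size, 15 with the replicate block, 6 with every gene of at least 1 count, 4 with at least 10 counts in at least 4 samples and 0 to 5 as each sample was left out (5 without control 4, 4 without knockout 2). DESeq2 called 6 VH and 9 light-chain V genes, and edgeR 0 light-chain V genes under every other setting. None of the calls was a member, but DESeq2 gave no adjusted p for IGHV11-1, IGHV12-3 and IGKV14-126. IGHV11-1 turned to 0.28 with TMM and 0.61 with DESeq2, and ran from -1.73 to 0.020 as samples were left out, with no value without control 1 or control 4. IGHV12-3 turned to -0.051 with all chain reads and -0.14 with the replicate block, and ran from -0.41 to 0.55. Its share difference ran from -0.00560 to 0.00108 percentage points. IGKV14-126 turned to -2.50 with the replicate block and to -1.78 on the log2 share scale, and ran from -4.06 to 1.03, and its share difference from -0.294 to 0.327 percentage points. The cause of these turns was not tested. The VH members could not be fitted with 10 counts in 4 samples. The replicate numbers are not shown to pair samples: 2 of 4 pairs on each chain correlated above 0.1, and 7 of 8 VH but 2 of 8 light-chain samples correlated best with their own number.

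Contig differences (knockout minus control) were no longer past the threshold with 1 sample left out, where the smallest exact permutation p is 0.0571: -21.1 to -15.1 for VH11, -47.2 to -39.2 for IGHV12-3, -10.7 to -8.33 for IGKV14-126 and -42.9 to -34.2 for IGKV4-91. Per 1000 contigs they were -2.97, 1.01, -7.42 and -4.35. By the 11-base opening they were -0.25 for VH11 and IGHV12-3, -2.50 for IGKV14-126 and for IGKV4-91 -5.50 (exact permutation p = 0.0286). The last value includes control contigs that did not list IGKV4-91. By 15 bases they were -0.75 for IGKV14-126 and -2.25 for IGKV4-91. By contigs listing the gene alone they were -0.25 for IGHV12-3 and -1.25 for IGKV14-126. No contig listed IGHV11-1, IGHV11-2 or IGKV4-91 alone. Depth limits the VH members most, with 13, 49 and 29 reads in all.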
